A study of Saccharomyces cerevisiae with 93 samples.

Results

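Compounds 3 and 4 are closely related synthetic molecules that were given to yeast cells carrying an empty vector, that is, without the toxic human protein the study is about. This account covers the 6 arrays, of 93 in the series, that set vector cells with compound 3 (3 arrays) or compound 4 (3 arrays) against vector cells without compound at 4 h of galactose induction. They were chosen by their titles, not by any measured value. Per the labels, both compounds are dihydroquinolinones with methyl groups at positions 6 and 7 and a bromofluorophenyl group at position 4. Bromine and fluorine sit at positions 5 and 2 of the phenyl ring in compound 3, and at positions 3 and 4 in compound 4. Bromine is therefore meta to the bond that joins the rings in either molecule, while fluorine is ortho to it in compound 3 and para to it in compound 4. The labels state no dose, so the compounds were matched in strain and time only.

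The series follows rescue from alpha-synuclein toxicity, a yeast model of Parkinson's disease. Its other arrays hold 4 further compounds in vector cells, the same 6 compounds in cells with 2 copies of alpha-synuclein, and time courses without compound. Each array compared RNA labelled with Cy5 (here cells with compound) with RNA labelled with Cy3 (here cells without), and no array had the dyes swapped. The label of 1 sample, of 2-copy cells, gives the strain as W303 with the drug pump regulators PDR1 and PDR3 replaced by kanMX, with mating type a, and with alpha-synuclein fused to GFP under a galactose promoter. Whether vector cells carry the same deletions is not stated there. The labels call the 3 arrays of a comparison biological replicates.

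PDR1 and PDR3 encode transcription factors that switch on the multidrug pumps of budding yeast, and cells without them keep more of many drugs inside. Transporters of the plasma membrane are among the many genes that yeast adjusts when its surroundings change. Hexose carriers follow the sugar supply, the proton pump Pma1 sets the membrane potential that drives uptake, and the sodium pumps of the ENA family respond to salt, alkali and loss of glucose. Cells on galactose also partly release the genes for gluconeogenesis and respiration that glucose keeps silent.

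Values are the authors' log2 ratios of cells with compound over cells without, so a value of 1 means 2 times as much RNA with compound. The arrays of compounds 3 and 4 were quiet. Their SDs over all 6377 probes lay between 0.196 and 0.21 for compound 3 and between 0.182 and 0.239 for compound 4. Arrays of 1 compound correlated with each other at 0.438 to 0.546 for compound 3 and at 0.234 to 0.485 for compound 4 (Pearson's r across probes, a description). The same figure ran from -0.323 to 0.544 for the other 4 compounds in vector cells, where array number 2 of compounds 1, 2 and 5 had the lowest correlations of its group. Only 61 probes (0.957%) had a mean over both compounds beyond 0.5 in size, and 7 (0.11%) beyond 1. Raw intensities were not analysed here, so signal over background is unknown.

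In the mean over compounds 3 and 4, vector cells lost RNA for the hexose transporter HXT2, the aromatic aminotransferase ARO9, the gluconeogenic enzyme PCK1, the amino acid exporter AQR1 and the sodium pumps ENA1 and ENA2. RNA rose for the membrane protein genes YRO2 and MRH1, the cell wall glycoprotein gene YGP1, the proton pump PMA1, the ammonium transporter MEP2 and the iron gene FIT3. By limma, with 18 arrays of vector cells in the fit, 458 probes passed an adjusted p of 0.05 (7.18% of those tested), 188 higher (2.95%) and 270 lower (4.23%). Of these, 445 had 1 sign on all 6 arrays. Over all probes, 998 (15.6%) were higher and 1148 (18%) lower on all 6 arrays. Same-numbered arrays of compounds 3 and 4 deviated together, so they do not count as independent. When each same-numbered pair was averaged, the 3 resulting values alone gave 472 probes, 296 of them among the 458, but 2 probes, HXT2 and CSS1, when fitted with the noisier arrays of the other compounds. In that last fit 18 of the 20 genes named for the mean lost their call. Of the gene lists below, only that of hexose transporters kept a call there, through HXT2. Leaving out array 1, 2 or 3 of compound 3 left 238, 186 or 167 probes, and leaving out array 1, 2 or 3 of compound 4 left 225, 233 or 141. With a dye term, estimated from arrays of the time course fitted with the 18 arrays, 29 probes passed, and 13 of the 20 genes named for the mean kept their call.

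**Figure D1:**
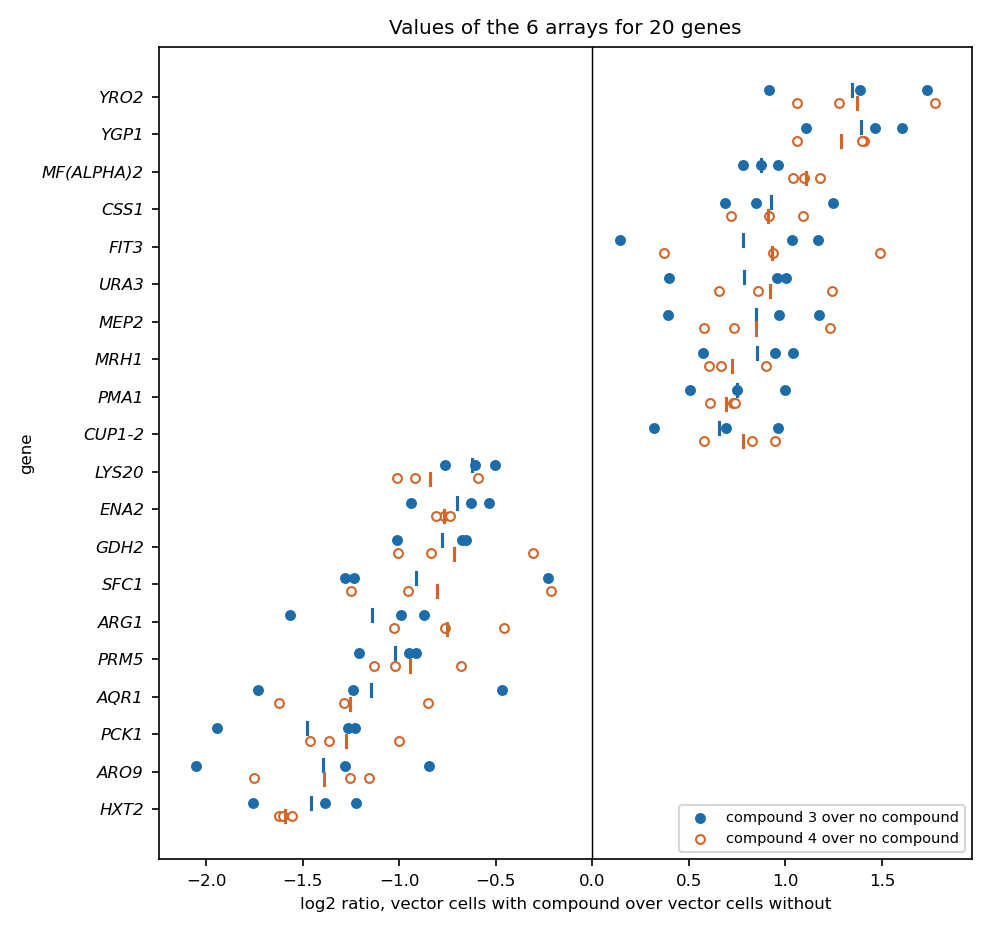
Log2 ratio of vector cells with compound over vector cells without (horizontal axis) for the 10 genes with the highest and the 10 with the lowest mean among those past the threshold (vertical axis). Filled points are the 3 arrays of compound 3, open points below them the 3 arrays of compound 4, and short bars the group means. The compounds' points overlap or lie close together, MF(ALPHA)2 being the gene with all compound 4 points above those of compound 3, and HXT2 has the lowest mean, with arrays between -1.75 and -1.22.

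HXT2 (YMR011W) encodes a high-affinity hexose transporter made when glucose is scarce. It read -1.75, -1.39 and -1.22 on the compound 3 arrays and -1.62, -1.56 and -1.60 on the compound 4 arrays. All 6 arrays were low, and the compound 4 values lay inside the range of the compound 3 values. The mean was -1.52 ± 0.19 (SD, n = 6), with a limma adjusted p of 4.86e-08. HXT2 was the probe that stayed past the threshold whichever of the 6 arrays was left out, for compound 3 alone (-1.57 to -1.30) and for compound 4 alone (-1.61 to -1.58). None of the other 9 hexose transporter genes measured passed, though HXT1 did, as higher, from the averaged pairs alone (adjusted p = 0.0187). The nearest were HXT1, with a mean of 0.43 ± 0.12, HXT7 with -0.24 ± 0.42 and HXT3 with -0.21 ± 0.28 (SD, n = 6).

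The proton pump gene PMA1 encodes the main H+-ATPase of the plasma membrane. It read 0.75, 0.99 and 0.50 with compound 3 and 0.73, 0.74 and 0.61 with compound 4, a mean of 0.72 ± 0.16 (SD, n = 6; limma adjusted p = 0.000793). All 6 arrays were high. PMP1 and PMP2, small proteolipids that regulate this pump, were looked up after their values were seen. PMP1 averaged 0.58 ± 0.11 and PMP2 0.56 ± 0.12 (SD, n = 6), also high on each array, with limma adjusted p-values of 0.000842 and 0.000322. PMA2, a minor form of the pump, did not pass, at -0.06 ± 0.14. With a dye term in the fit, PMA1 came to 0.47 and kept its call, with an adjusted p of 0.0231.

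Among the sodium pumps, ENA1 read -0.67, -0.85 and -0.59 with compound 3 and -0.72, -0.71 and -0.73 with compound 4. Its mean was -0.71 ± 0.08 (SD, n = 6; limma adjusted p = 0.000678). ENA2 averaged -0.74 ± 0.14 (adjusted p = 0.00114), low on all 6 arrays, while ENA5 did not pass at -0.10 ± 0.10. With the dye term ENA1 came to -0.56 and lost its call (adjusted p = 0.205), and ENA2 kept it. These genes are near copies of each other, and whether the probes tell ENA1 from ENA2 was not tested.

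YRO2 encodes a membrane protein of the heat shock protein HSP30 family, and MRH1 its close relative. YRO2 read 1.39, 1.73 and 0.91 with compound 3 and 1.28, 1.77 and 1.06 with compound 4. All arrays were high, array number 2 the highest and number 3 the lowest with either compound, and the mean was 1.36 ± 0.35 (SD, n = 6; limma adjusted p = 0.000665). MRH1 averaged 0.79 ± 0.20 (adjusted p = 0.00173). YGP1, a secreted glycoprotein induced when nutrients run out, read 1.60, 1.46 and 1.11 with compound 3 and 1.41, 1.39 and 1.06 with compound 4, again high throughout. Its mean was 1.34 ± 0.21 (SD, n = 6; adjusted p = 0.015), a call that was lost when any array but number 3 of compound 3 was left out (adjusted p = 0.0514 to 0.0578). The wall-associated genes CSS1 and HPF1 rose by 0.92 ± 0.22 and 0.68 ± 0.15. FAA1, a long-chain fatty acyl-CoA synthetase, averaged 0.66 ± 0.24, and 0.35 with the dye term, which ended its call (adjusted p = 0.39).

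MF(ALPHA)2 encodes a minor alpha-factor pheromone precursor. It read 0.96, 0.78 and 0.87 with compound 3 and 1.18, 1.10 and 1.04 with compound 4, so that the compound 4 arrays lay above the compound 3 arrays. Its mean was 0.99 ± 0.15 (SD, n = 6; limma adjusted p = 0.015), and the dye term ended the call (adjusted p = 0.375), as did leaving out array 1 or 3 of either compound (0.0508 to 0.0545). It was the 1 of 5 alpha-specific genes that passed, and 0 of 6 a-specific genes passed. Among markers of strain construction, URA3 read 0.40, 1.00 and 0.96 with compound 3 and 0.66, 0.86 and 1.24 with compound 4, a mean of 0.85 ± 0.29 (limma adjusted p = 0.00273) that came to 0.21 with the dye term (adjusted p = 0.938). The copper-binding metallothionein probe CUP1-2 averaged 0.72 ± 0.24 (adjusted p = 0.000793), and 0.52 with the dye term (adjusted p = 0.375). CUP1-1, a tandem copy of the same gene whose probe may read the same RNA, averaged 0.47 ± 0.25.

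Genes of nitrogen and amino acid use moved in both directions. ARO9, an aminotransferase that starts the breakdown of aromatic amino acids, read -1.28, -2.05 and -0.85 with compound 3 and -1.25, -1.75 and -1.16 with compound 4. All arrays were low, and number 2 was the lowest with either compound. The mean was -1.39 ± 0.44 (SD, n = 6; limma adjusted p = 0.0288), and -0.60 with the dye term (adjusted p = 0.872). The call was also lost whichever of the 6 arrays was left out (adjusted p = 0.0586 to 0.126). ARO10, the decarboxylase of the same pathway, averaged -1.12 ± 0.40 without passing. AQR1, a plasma membrane exporter of amino acids, read -1.73, -1.24 and -0.47 with compound 3 and -1.62, -1.29 and -0.85 with compound 4, a mean of -1.20 ± 0.48 (adjusted p = 0.0105). That call was lost with the dye term (adjusted p = 0.0756) and without array 1 of compound 3 (0.0502).

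Of 49 measured genes of amino acid biosynthesis, 13 were lower and 0 higher, beside 4.23% and 2.95% of all probes, and the list's median was -0.19, against -0.0017 over all probes. ARG1, the argininosuccinate synthetase of arginine synthesis, read -1.56, -0.99 and -0.87 with compound 3 and -0.77, -1.03 and -0.46 with compound 4. The ranges of the compounds overlapped, and the mean was -0.95 ± 0.36 (SD, n = 6; limma adjusted p = 0.00241). LYS20, the homocitrate synthase that opens lysine synthesis, averaged -0.73 ± 0.20, and ARG3, of arginine synthesis, -0.71 ± 0.33. Among the others that fell were ARG56, LYS2, ILV5, LEU4, ARO3, TRP3, HOM2, SER1 and ILV6, between -0.64 and -0.24. Averaged pairs alone also gave 13 lower and 0 higher, in a fit that called 4.5% of all probes lower and 2.9% higher. Fitted with the arrays of the other compounds, the averaged pairs gave no call in this list. The fit to all 93 arrays gave 10 lower and 0 higher, with 1.38% of all probes lower and 0.972% higher. In purine and one-carbon synthesis 3 of 21 genes fell (ADE8, ADE12 and GCV3), and SHM2, a serine hydroxymethyltransferase, missed the threshold at -0.34 ± 0.16 (adjusted p = 0.0559).

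Among 32 genes of proline and nitrogen use, 4 were higher and 1 lower, beside 2.95% and 4.23% of all probes. Averaged pairs alone gave 3 higher and 1 lower, and the fit to all 93 arrays 1 higher (MEP2) and 1 lower (GDH2). MEP2, an ammonium transporter and sensor, read 0.97, 0.39 and 1.18 with compound 3 and 0.73, 0.58 and 1.23 with compound 4, a mean of 0.85 ± 0.33 (SD, n = 6; limma adjusted p = 0.00372). DAL3, UGA4 and CAR1, which degrade allantoin, take up gamma-aminobutyrate and degrade arginine, averaged 0.41 ± 0.12, 0.27 ± 0.12 and 0.25 ± 0.12. GDH2, the glutamate dehydrogenase that releases ammonium, fell, at -0.75 ± 0.27 (adjusted p = 0.00253).

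**Figure D2:**
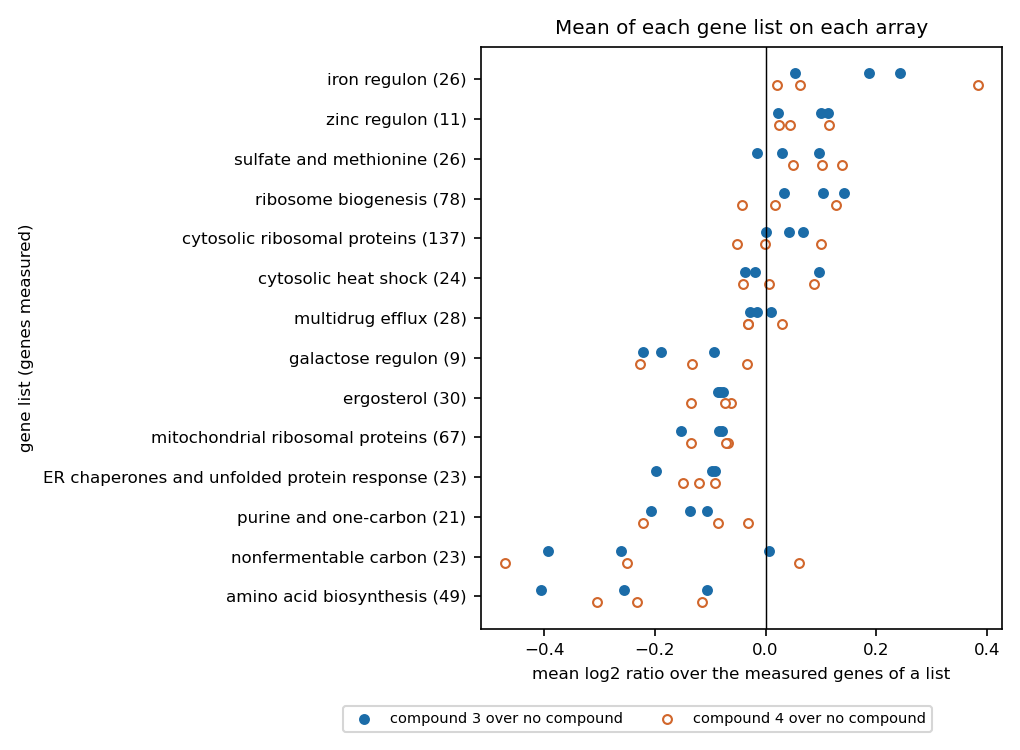
Mean log2 ratio over the measured genes of a list (horizontal axis) on each array, for 14 gene lists (vertical axis, with the number of genes measured). Filled points are compound 3 and open points compound 4. Means of amino acid biosynthesis lie between -0.40 and -0.11 on all 6 arrays, and those of nonfermentable carbon spread from -0.47 to 0.06. The latter are near 0 on array number 2 and lower on numbers 1 and 3 with either compound.

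Of the genes for growth on nonfermentable carbon, 6 of 23 were lower and 1 higher, with a median of -0.19, beside 4.23% of all probes lower and 2.95% higher. The list's mean went with the array number, at -0.26, 0.006 and -0.39 with compound 3 and -0.25, 0.06 and -0.47 with compound 4. As a whole the list was thus near 0 on number 2 with either compound. Averaged pairs alone gave 5 lower and 0 higher, and the fit to all 93 arrays 2 lower and 0 higher. PCK1, the phosphoenolpyruvate carboxykinase of gluconeogenesis, read -1.26, -1.94 and -1.23 with compound 3 and -1.002, -1.46 and -1.36 with compound 4, low on every array. Its mean was -1.38 ± 0.32 (SD, n = 6; limma adjusted p = 0.00786), and -1.26 with the dye term (adjusted p = 0.0662). SFC1, the succinate-fumarate carrier of mitochondria, read -1.23, -0.23 and -1.28 with compound 3 and -0.96, -0.21 and -1.25 with compound 4, so that array number 2 was near 0 with either compound. Its mean was -0.86 ± 0.51 (adjusted p = 0.00365), a call that was lost from the averaged pairs alone (0.0515) and with the dye term (0.251). ICL1, IDP2, YAT1 and FBP1 were also lower, and GUT1, the glycerol kinase gene, was higher at 0.22 ± 0.11, a call lost from the averaged pairs alone (0.0547).

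In this paragraph counts stand beside 4.23% of all probes lower and 2.95% higher. Genes of mitochondrial ribosomes fell in 8 of 67 cases with no rise (median -0.10), led by MRPL28 at -0.39 ± 0.11 and RSM7 at -0.38 ± 0.09. In the respiratory chain and ATP synthase, 4 of 35 genes fell and 2 rose: QCR6 at -0.42 ± 0.12, ATP14 at -0.41 ± 0.14, CYC1 at -0.37 ± 0.11 and QCR7 at -0.18 ± 0.04 against COX6 at 0.25 ± 0.13 and COX9 at 0.19 ± 0.08. Averaged pairs alone gave 3 lower and 0 higher there, and all 93 arrays 2 lower and 0 higher. Among cytosolic ribosomal proteins, 14 of 137 rose and 3 fell around a median of 0.03. Counted from the averaged pairs alone the split was 6 to 6. Ribosome biogenesis had 1 of 78 genes higher and 1 lower. In the fit to all 93 arrays 2 mitochondrial ribosomal genes stayed lower, and 1 cytosolic one was higher and 1 lower.

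Genes of metal uptake were mostly higher where they passed, against 2.95% of all probes higher. In the iron regulon 3 of 26 genes rose: the cell wall mannoprotein gene FIT3, the ferroxidase FET3 (0.59 ± 0.29) and the siderophore transporter ARN2 (0.20 ± 0.06). FIT3 read 1.17, 0.14 and 1.03 with compound 3 and 0.93, 0.37 and 1.49 with compound 4, and array number 2 was the lowest with either compound. Its mean was 0.86 ± 0.51 (SD, n = 6; limma adjusted p = 0.00924), and the call was lost with all 93 arrays in the fit (0.0561) and without array 3 of compound 4 (0.0571). FIT2 spread further, at 0.96, 0.22 and 1.61 with compound 3 and 0.51, 0.13 and 2.43 with compound 4, and did not pass (adjusted p = 0.111). In the zinc regulon ZRT1 (0.48 ± 0.08), FET4 (0.47 ± 0.13) and ZRT2 (0.26 ± 0.10), which carry zinc or iron into the cell, were higher and ZPS1 lower (-0.36 ± 0.09), 3 and 1 of 11 genes. Of 11 copper genes, CUP1-1 and CUP1-2 rose and the reductase FRE7 fell (-0.35 ± 0.08). MET14, MET10 and MET5, of sulfate assimilation, rose by 0.41 ± 0.17, 0.32 ± 0.11 and 0.27 ± 0.12, 3 of 26 genes of that list. Averaged pairs alone gave 2 higher genes in the iron list, 3 in the zinc list, 2 in the copper list and 5 in the sulfate list. With all 93 arrays in the fit 0 were higher in any of the 4 lists, and ZPS1 and FRE7 stayed lower.

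In protein folding and stress, counts are to be read against 4.23% of all probes lower and 2.95% higher. PDI1, a protein disulfide isomerase of the endoplasmic reticulum, averaged -0.56 ± 0.09, ERO1, the oxidase that recharges it, -0.28 ± 0.15, and JEM1 -0.25 ± 0.12. These were 3 of 23 genes, all lower, with a list median of -0.16, and 0 of the list passed with all 93 arrays in the fit. The call of ERO1 was lost from the averaged pairs alone (adjusted p = 0.0594) and without array 1 of compound 3 (0.0532), and the main chaperone KAR2 did not pass (-0.27 ± 0.11, adjusted p = 0.138). By an indirect route over other arrays, described below, ERO1 was higher instead (1.51, limma adjusted p = 0.016). Some of those arrays stand apart from the rest of the series. In cytosolic heat shock, FES1 (0.31 ± 0.07) and YDJ1 (0.22 ± 0.06) rose of 24 genes, while HSP26 stood at -0.20 ± 0.15 (adjusted p = 0.771). YGP1 was the 1 of 26 general stress genes that passed, and of 19 trehalose and glycogen genes 0 passed. In ergosterol synthesis ERG13, ERG1 and ERG3 fell, 3 of 30 genes, with 4 from averaged pairs alone and 0 with all 93 arrays. PRM5, a cell surface protein gene driven by the cell wall integrity pathway, read -1.21, -0.91 and -0.95 with compound 3 and -1.02, -0.68 and -1.13 with compound 4, low on all arrays (mean -0.98 ± 0.18, adjusted p = 0.00117). GSC2, a glucan synthase subunit, averaged -0.54 ± 0.16 (adjusted p = 0.000842), and its call was lost with the dye term (0.188).

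The pumps through which PDR1 and PDR3 act gave small values. PDR5 averaged 0.16 ± 0.10, SNQ2 -0.09 ± 0.10 and YOR1 0.03 ± 0.15 (SD, n = 6), with adjusted p-values of 0.299, 0.664 and 0.922. Of 28 efflux genes measured, QDR2 (0.41 ± 0.04) and TPO2 (0.43 ± 0.09) were higher, and PDR10 (-0.31 ± 0.05) and PDR8 (-0.24 ± 0.09) lower. Over all probes 2.95% were higher and 4.23% lower. Averaged pairs alone gave the same counts, and all 93 arrays 0 of the list. Of 9 galactose genes 0 passed. GAL1 averaged -0.15 ± 0.09, GAL7 -0.09 ± 0.06 and GAL10 -0.24 ± 0.10 (limma adjusted p = 0.349, 0.714 and 0.351), each below 0 on all 6 arrays. From the averaged pairs alone, 3 of the 9 genes passed, all lower, in a fit that called 4.5% of all probes lower and 2.9% higher.

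Each compound alone gave far fewer calls. With compound 3, 25 probes passed (0.392%), 15 higher and 10 lower, and with compound 4, 19 (0.298%), 9 higher and 10 lower. With array number as a block, the count for compound 3 was 41. Leaving out any 1 of its arrays left 1 to 3 probes for compound 3 and 1 probe, HXT2, for compound 4. All 25 and all 19 were among the 458 of the mean, which rests on the same arrays. Largest for compound 3, by the naming rule, were YRO2 (1.34 ± 0.41), CSS1 (0.93 ± 0.29), MRH1 (0.85 ± 0.25), PMA1 (0.75 ± 0.25) and FAA1 (0.68 ± 0.26) among higher genes. HXT2 (-1.45 ± 0.27), ARG1 (-1.14 ± 0.37), PRM5 (-1.02 ± 0.16), ENA1 (-0.70 ± 0.13) and the uracil permease FUR4 (-0.62 ± 0.27) were the lowest (SD, n = 3). For compound 4 the highest were YRO2 (1.37 ± 0.37), CSS1 (0.91 ± 0.18), CUP1-2 (0.78 ± 0.19), HPF1 (0.71 ± 0.13) and PMA1 (0.69 ± 0.07). The lowest were HXT2 (-1.59 ± 0.03), ENA2 (-0.77 ± 0.04), ENA1 (-0.72 ± 0.01), GSC2 (-0.64 ± 0.16) and FUR4 (-0.58 ± 0.24).

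No gene separated the compounds past the threshold. By limma, 0 of 6377 probes passed for compound 3 minus compound 4, 1 of 2 comparisons of compounds adjusted together. The smallest adjusted p was 0.814, and 8 probes (0.125%) had an unadjusted p under 0.05. The 6 arrays alone gave 37 probes (0.58%) at that unadjusted level, and the 6 arrays with array number as a block 162 (2.54%). In either fit 0 passed the adjusted threshold. If no probe differed, a share of about 0.05 would usually fall under that unadjusted level. Each of these shares was smaller, so the fits were conservative for this comparison, and the lack of calls is weak evidence of likeness. Array weights gave 1 call, the unnamed open reading frame YBR116C, at -0.33. A missed threshold does not show that the compounds act alike. The 95% interval of the difference had a median width of 0.32 to either side in the fit of 18 arrays, and 0.15 with the block over the 6 arrays, so that larger differences at a typical probe lie outside it.

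**Figure D3:**
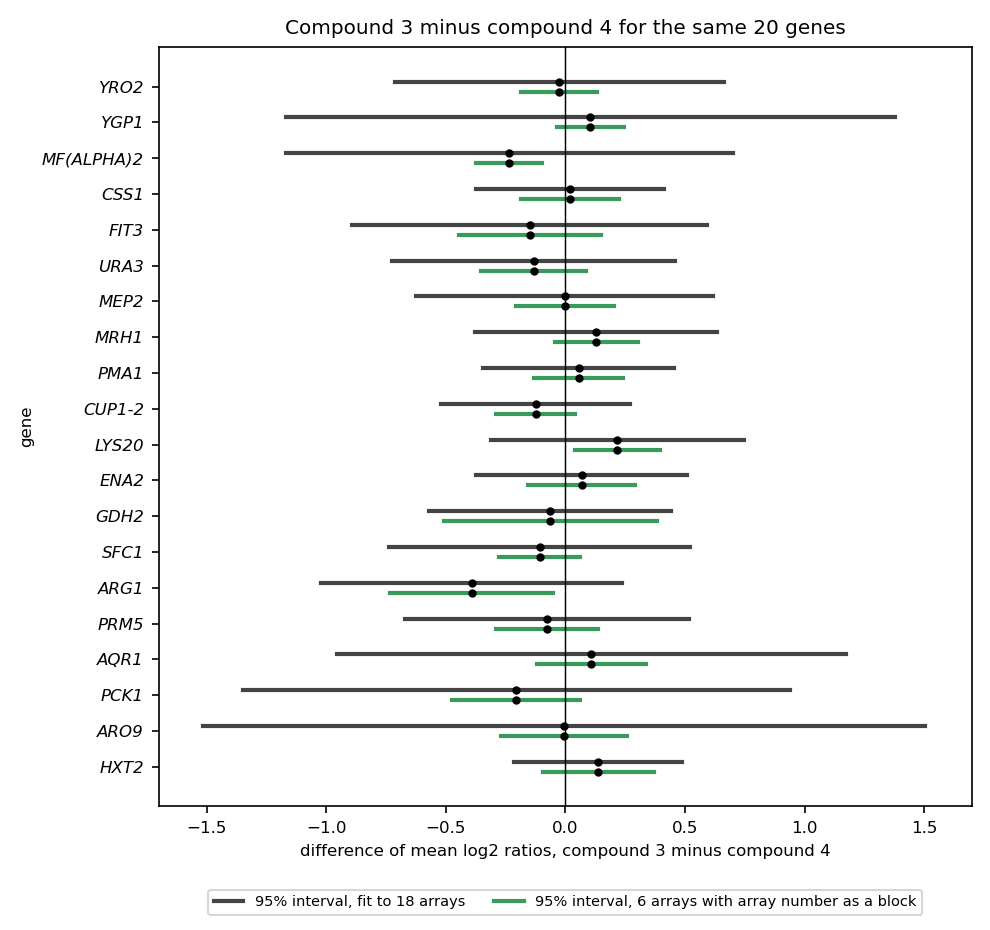
Difference between the mean log2 ratios, compound 3 minus compound 4 (horizontal axis), for the 20 genes of the response (vertical axis). Points are differences, dark lines their 95% intervals in the fit of 18 arrays and green lines those of the 6 arrays with array number as a block. The dark intervals include 0 for all 20 genes and the green ones for 17, the exceptions being MF(ALPHA)2, LYS20 and ARG1.

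For all 20 genes named from the mean response, the interval of the difference included 0 in the fit of 18 arrays. For HXT2 the difference was 0.14 (95% interval -0.21 to 0.49), for PMA1 0.06 (-0.34 to 0.45) and for YRO2 -0.03 (-0.71 to 0.66). ENA1, named for each compound alone, had 0.02 (-0.36 to 0.40). The largest of the 20 was that of ARG1, at -0.39 (-1.02 to 0.24). With the block over the 6 arrays, which removes what same-numbered arrays share, unadjusted intervals left out 0 for 3 genes. These were ARG1 (-0.73 to -0.05), MF(ALPHA)2 at -0.23 (-0.37 to -0.10) and LYS20 at 0.22 (0.04 to 0.40). GSC2, named for compound 4 alone, had 0.20 (0.07 to 0.34). ATP14, a subunit gene of the ATP synthase, read -0.19, -0.32 and -0.36 with compound 3 and -0.52, -0.51 and -0.57 with compound 4, a difference of 0.24 (0.10 to 0.38 with the block) with no overlap and no call. The arrays of the compounds did not overlap for 250 probes (3.92%). With 3 arrays per compound lack of overlap also arises by chance, so by itself it marks no difference between the compounds.

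The larger differences mostly came from 1 array. Only 14 probes (0.22%) differed by over 0.5 between the compounds. Of the 20 probes with the largest difference, 17 were beyond 1 in size on 1 array and under 0.5 on the other 5. There were 28 such probes in all, up to 19 of them on 1 array. Among genes whose arrays did not overlap, the largest values were those of HRQ1, a DNA helicase, at 0.42 (-0.01 to 0.85), AGP3, an amino acid transporter, at 0.41 (-0.06 to 0.88), and ECO1, an acetyltransferase of cohesion, at 0.40 (-0.06 to 0.87). On the other side were KEG1, of glucan synthesis (-0.39, -0.79 to -0.00), RAD17, of the DNA damage checkpoint (-0.35, -0.67 to -0.02), and ZIP2, of meiosis (-0.30, -0.63 to 0.03). None was called. HRQ1 read 0.25, 0.14 and 0.17 with compound 3 and -0.93, 0.11 and 0.13 with compound 4, so that its difference lay in the first compound 4 array.

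Same-numbered arrays of the compounds deviated together. Residuals from the group means correlated across probes at 0.46, 0.387 and 0.668 for numbers 1, 2 and 3, as a description over 6377 probes of arrays that may share an untreated culture. Genes that followed the array number were picked after their values were seen. ATG41, of mitophagy, read -1.24, 0.71 and -1.49 with compound 3 and -0.73, 0.84 and -1.26 with compound 4. The peroxisomal citrate synthase CIT2 read 0.08, 1.20 and -0.65 with compound 3 and -0.22, 1.11 and -0.81 with compound 4. Array number 2 was high in both genes whichever compound was used. The aldehyde dehydrogenase ALD3 was high on number 2 only, at 1.34 with compound 3 and 1.24 with compound 4, and near 0 on the others. SIT1, a siderophore transporter, was highest on number 3, at 0.90 and 1.11. For ATG41, CIT2 and SIT1 the mean over both compounds joins values of opposite sign.

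**Figure D4:**
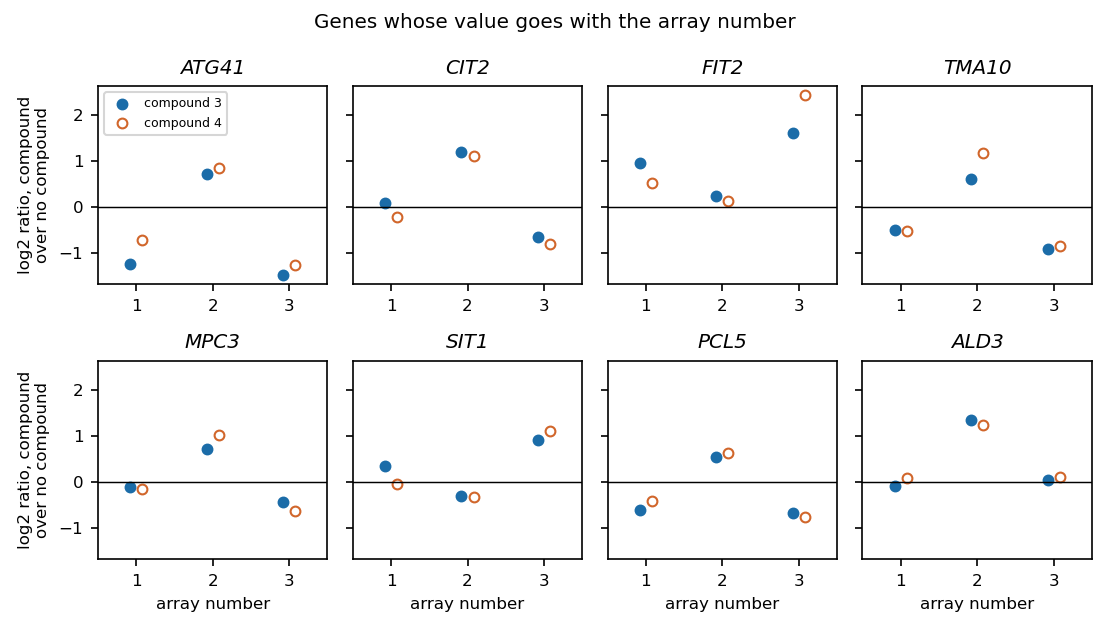
Log2 ratio of vector cells with compound over vector cells without (vertical axis) against array number (horizontal axis) for 8 genes picked for the span of their same-numbered means. Genes with a large difference between the compounds on the same number were left out, as was SPP2 (3.2 on number 2). Likeness of the compounds here is therefore partly set by the choice. Filled points are compound 3 and open points compound 4. ATG41, CIT2, TMA10, MPC3, PCL5 and ALD3 are highest on number 2, and FIT2 and SIT1 on number 3, with either compound.

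Compound 5 has the same dimethylquinolinone core, and its label writes an ethyl group where compounds 3 and 4 have bromofluorophenyl. Whether that label leaves out a phenyl ring could not be settled, so the structural difference is uncertain, and no dose is stated. The mean of compounds 3 and 4 minus compound 5 passed the threshold for 2 probes (0.0314%), HXT2 and ENA1, each lower. HXT2 was at -1.75 to -1.22 with compounds 3 and 4, against 0.08, 0.25 and 0.30 with compound 5, a difference of -1.73 ± 0.14 (SE; limma adjusted p = 3.96e-05). The arrays did not overlap, and the call held whichever of the 9 arrays was left out. ENA1 was at -0.85 to -0.59 with compounds 3 and 4, against 0.24, 0.76 and 0.18 with compound 5, a difference of -1.11 ± 0.15 (adjusted p = 0.0181). This call was lost when any 1 of 7 of the 9 arrays was left out, and with the sign of array number 2 of compound 5 turned. The sign was turned because that array correlated at -0.323 with number 3 of its group. Whether the array is inverted was not tested.

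Other genes stood apart from compound 5 in value but not past the threshold. The differences were 1.56 ± 0.52 for YGP1, 1.16 ± 0.28 for YRO2, 1.11 ± 0.38 for MF(ALPHA)2 and -1.33 ± 0.43 for AQR1 (SE; adjusted p = 0.779, 0.489, 0.779 and 0.771). Compounds 1 and 2, benzoquinolinones with a halogenated phenyl group, and compound 6, a brominated benzoquinolinone with an ethylphenyl group, are given side by side without a test. HXT2 averaged -1.52 with compounds 3 and 4, against -0.88 ± 0.07, -1.43 ± 0.39 and 0.12 ± 0.12 with compounds 1, 2 and 6 (SD, n = 3). PMA1 averaged 0.72 with compounds 3 and 4, against 1.00 ± 0.42, 1.33 ± 0.28 and -0.01 ± 0.16. All 10 lower genes were below 0 on each array of compounds 1 and 2, and at least 9 of the 10 higher genes above 0. On the arrays of compound 5, 4 to 10 of the higher genes were above 0 and 5 to 7 of the lower genes below it, and on those of compound 6, 6 to 8 and 1 to 5. All these arrays name the same untreated vector cells as their reference. No share over all probes is given beside these counts of signs.

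**Figure D5:**
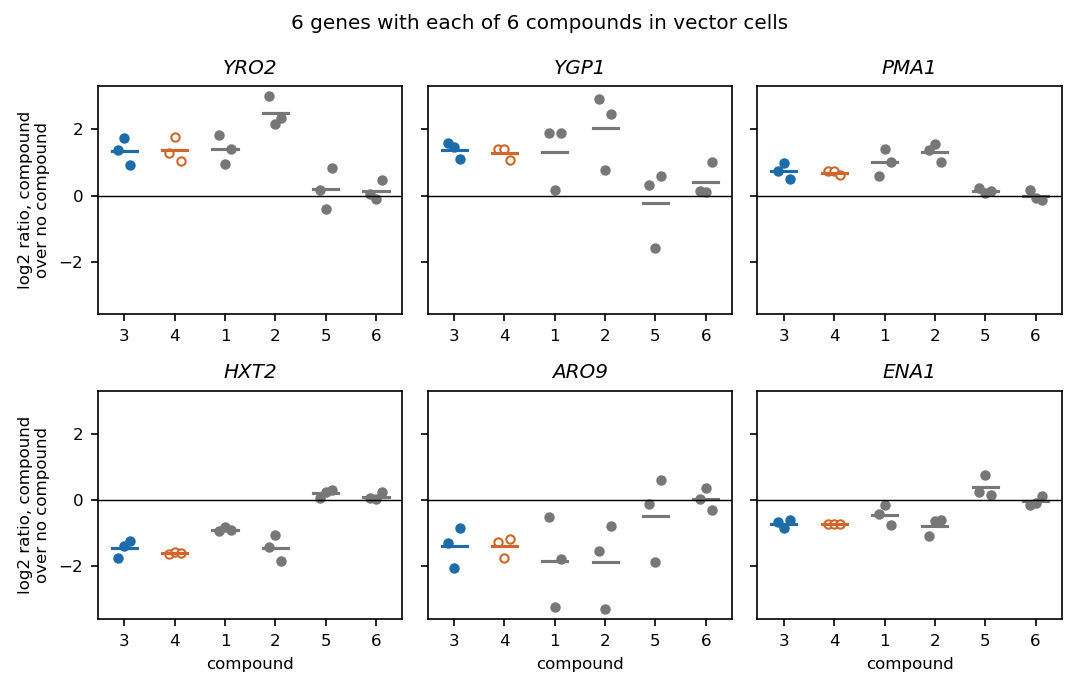
Log2 ratio of vector cells with compound over vector cells without (vertical axis) for 6 genes with each compound (horizontal axis, compounds 3 and 4 first), 3 arrays per compound as points and their mean as a bar. With compounds 5 and 6 HXT2 lies between 0.04 and 0.30, above all arrays of compounds 1 to 4.

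In cells with 2 copies of alpha-synuclein, 4 to 9 of the 10 higher genes were above 0 and 7 to 10 of the 10 lower genes below 0 on each array of compounds 3 and 4. Here too the share over all probes is not given. HXT2 was below 0 on all 6 of these arrays of 2-copy cells. It read -1.41, -1.87 and -2.19 with compound 3 and -1.43, -2.37 and -1.99 with compound 4, each against 2-copy cells without compound. The response in 2-copy cells was -1.88, against -1.52 in vector cells, and the difference did not pass (-0.35, adjusted p = 0.455). Without the arrays described next the difference came to -0.13. Of the 6 arrays of 2-copy cells, 3 stand apart: their large ratios fall on other genes than elsewhere in the series, a choice taken over from earlier results of these data. Values stand first with all arrays and then without those that stand apart. Leaving these out keeps only array number 1 of compound 3 in 2-copy cells. The second values are therefore given as sizes, without a test. By limma on all 93 arrays, 458 probes (7.18%) differed between the responses, 176 higher (2.76%) and 282 lower (4.42%) in 2-copy cells, and 784 (12.3%) did so without the 10 arrays that stand apart.

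Of the genes that follow, PHO89, PCK1 and CUP1-2 had also passed in vector cells. The phosphate transporter genes PHO84 and PHO89 and the phosphate gene SPL2 had responses of -2.09, -2.28 and -2.29 in 2-copy cells, against -0.07, -0.23 and -0.24 in vector cells. The differences were -2.02 ± 0.45, -2.04 ± 0.36 and -2.05 ± 0.38 (SE; limma adjusted p = 0.00195, 7.84e-05 and 0.000159). Without the arrays that stand apart they were -1.83, -1.96 and -2.16. The sulfate permease SUL1 had -1.48 in 2-copy cells, against 0.19 in vector cells, a difference of -1.67, and -1.84 without those arrays. The daughter separation genes SCW11 and DSE4 and the wall gene CWP1 had 1.18, 1.31 and 1.31 in 2-copy cells, against -0.11, 0.04 and 0.08 in vector cells. The differences were 1.30, 1.26 and 1.23, all called with all arrays in the fit, and 1.61, 1.41 and 1.45 without those that stand apart. PCK1 went the other way, with -0.21 in 2-copy cells, against -1.38 in vector cells, a difference of 1.17 ± 0.33 (adjusted p = 0.0173). Without those arrays it was smaller, at 0.99. CUP1-2 had -0.30 in 2-copy cells, against 0.72 in vector cells, a difference of -1.02 (adjusted p = 0.0431), and -1.20 without those arrays.

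The vector response can also be reached by a route over 3 further kinds of array, that is, from compound in 2-copy cells, 2-copy over vector cells with compound, and 2-copy over vector cells without. Over arrays number 1 with compound, which do not stand apart, this route gave the same sign for all 10 higher and all 10 lower genes. The sizes differed. HXT2 came to -0.37 by that route, against -1.52 on the direct arrays, URA3 to 0.04 against 0.85, ENA1 to -0.34 against -0.71, and PMA1 to 1.34 against 0.72. With 1 array for each kind with compound on that route, only 5 of the 20 genes kept their call. Over all arrays, including those that stand apart, 9 of the 10 higher and 8 of the 10 lower genes kept their sign, the exceptions being URA3, PRM5 and GDH2.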

How the data were processed

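Two-colour arrays of total RNA were deposited as log2 ratios that the authors had normalised, with limma named in the submitters' processing notes. For limma's version, background correction and normalisation, nothing was found: they were not given in the sources used here. Neither label nor header names scale or direction, and values were taken as log2 ratios of Cy5 to Cy3, as limma writes them and as the labels order the samples. Array medians lay between -0.0306 and 0.0214. Of 6377 probes, 5644 were named by locus tag, 196 after restoring a hyphen, and 537 matched no gene. All were tested.

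Groups followed the labels, and members and gene lists were chosen with earlier results of these data known. A mean per compound was fitted to the 18 arrays of vector cells (limma 3.58.1, R 4.3.3, two-sided moderated tests, 15.2 degrees of freedom with 3.21 from the prior). P-values were adjusted by Benjamini-Hochberg over all probes, and over both comparisons of compounds together. The difference between strains was fitted to all 93 arrays. The threshold was 0.05. The number of arrays limits the precision, and p-values measure the spread between these arrays only.

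Genes were named by rule: with a symbol, past the threshold, and of 1 sign on all arrays or, in differences, without overlap of the groups, up to 10 and 10 by size for the mean, 5 and 5 per compound, 8 and 8 for compound 3 minus compound 4, and 4 and 4 elsewhere. Where fewer than 3 passed, the 3 largest were given as values. Up to 4 members of a described list and 15 fixed genes were added, and other calls of a list are given as its full count. Any other gene given a value (such as PMA2, ENA5 or ARO10) was chosen after its values were seen. There were 36 lists. A called list member may be counted but not reported here by name.

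Same-numbered arrays of compounds 3 and 4 had residual correlations of 0.46, 0.387 and 0.668, so the numbers pair them, as a hint from the data. Blocked values stand beside results they change. Alternatives were the arrays in the fit, scaling, array weights, a dye term, the loop routes, left-out arrays and matched probes. Averaged pairs, the block over the 6 arrays alone, the fit without number 2 of compounds 1, 2 and 5 and the turned sign were chosen after seeing the data. The fit was tested on simulated independent noise, which leaves out what same-numbered arrays share, so its recovery and false calls are not given.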

Additional observations from a re-analysis of the deposited data

Results flagged for a closer look

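Of 40 groups checked (20 genes in the 6 arrays of compounds 3 and 4 in vector cells and in the 6 arrays of 2-copy over vector cells without compound), 3 held an array far from the rest, all without compound. Chance gives about 1 in 20. MF(ALPHA)2 read 0.5531 on array number 3, against -1.64 to -1.36 on the others. FIT3 read 1.0363 on number 4, against -0.12 to 0.19 on the others, and HXT2 -0.1349 on number 6, against 0.77 to 1.15 on the others. The 6 arrays of compounds 3 and 4 held no such array for these genes. Genes named by the rule have a call and 1 sign on arrays of these compounds, so that outcome was partly set by the choice.

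The response to compounds 3 and 4 differed between 2-copy and vector cells, by limma's test of the difference, for 10 of the genes looked at. The difference, 2-copy minus vector, was 1.36292 for YPK2, 1.29712 for SCW11, 1.26445 for DSE4, 1.23082 for CWP1 and 1.17057 for PCK1. It was -2.04995 for SPL2, -2.04315 for PHO89, -2.02445 for PHO84, -1.66722 for SUL1 and -1.01583 for CUP1-2. All 10 kept their sign without the arrays that stand apart.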

How the results depend on the processing

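Counts of calls depended strongly on which arrays set the spread, and the cause was not tested beyond what each setting changes. For compound 3 (25), compound 4 (19) and their mean (458), the arrays of the comparison alone gave 360, 47 and 1800, scaling by median absolute deviation 296, 250 and 1195, and array weights 1219, 1295 and 2375. All 93 arrays gave 14 for compound 3 and 150 for the mean, and the dye term 10, 7 and 29. Matched probes alone gave 31 for compound 4. The loop route over all arrays gave 948, 440 and 1628, and over arrays number 1 gave 5 and 8 for compounds 3 and 4. Leaving out 1 array gave 1 to 3, 1, and 141 to 238.

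With array number as a replicate block, compound 3 had 41 calls. Chosen after seeing the data, the block over the 6 arrays alone gave 1825, 1676 and 2966, the fit without number 2 of compounds 1, 2 and 5 gave 304, 224 and 1266, and averaged pairs fitted with the other compounds gave 2 for the mean.

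Compound 3 minus compound 4 had 0 calls in each fit but that with array weights, with 1. The mean minus compound 5 (2) had 9 with all 93 arrays, 1 with its own arrays, 8 after scaling, 102 with array weights, 1 with the sign of array 2 of compound 5 turned, and 1 to 6 with 1 array left out. HXT2 was among them in each of these fits that left out an array. The difference between strains (458) had 784 without the arrays that stand apart, 1169 after scaling, 1142 with array weights and 992 with the replicate block over 12 arrays. There, same-numbered arrays had residual correlations of 0.0739 to 0.185 for compound 3 and 0.0297 to 0.0784 for compound 4, all small and positive. Whether they share more than a number was not tested.

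The loop route over all arrays, which includes those that stand apart, turned 7 values: MRH1 (-0.0175) and PRM5 (0.543667) for compound 3, GSC2 (1.29628) for compound 4, and URA3 (-0.687933), PRM5 (0.500683), GDH2 (0.204583) and ERO1 (1.50882) for the mean. Of these only ERO1 passed the threshold in its turned direction (limma adjusted p = 0.016).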

Other observations

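YPK2, a kinase gene of the plasma membrane stress pathway, gave a value in 2-copy cells that depended on the array. It read 2.48, 0.91 and 0.23 with compound 3 and 2.57, 0.29 and 0.27 with compound 4 in 2-copy cells, against -0.33, 0.03 and -0.47 with compound 3 and -0.26, 0.20 and -0.60 with compound 4 in vector cells. FIT3 had a like spread in 2-copy cells, at 2.85, 0.06 and 0.11 with compound 3 and 3.10, 1.26 and 0.12 with compound 4. The difference between strains for FIT3, 2-copy minus vector, was 0.39 (limma adjusted p = 0.593). Without the arrays that stand apart, which leaves 1 array of compound 3 in 2-copy cells, it was 1.66.

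The gene lists not described above are counted here for the mean of compounds 3 and 4 in vector cells, beside 2.95% of all probes higher and 4.23% lower. In the cell wall list 3 of 23 genes were lower and 0 higher, with 4 lower from averaged pairs alone and 0 with all 93 arrays. GSC2, given above as lower, is the FKS2 of that list under another name and was not counted in it. In aromatic catabolism, ARO9 and ARO8 were lower of 10 genes, and the list had the lowest median, -0.29. Averaged pairs alone gave 5 lower in that list (ARO8, ARO9, ARO10, PDC1 and PDC5), and all 93 arrays 3 (ARO9, ARO10 and ADH5). Each of the lists for the proteasome and for inositol and phospholipid had 2 lower and 0 higher, and the TCA cycle had 2 lower and 1 higher. Pheromone response had 1 higher (FAR1) and 1 lower (PRM5) of 22 genes. The phosphate regulon (PHO89) and oxidative defence had 1 lower each, and daughter separation, histones, hypoxic genes and transport from the endoplasmic reticulum to the Golgi 1 higher each. Of 19 thiamine and pyridoxine genes 0 passed by limma.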
